A study of Mus musculus with 38 samples.

Results

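The CD24 quartile libraries are 4 bulk RNA-seq libraries made from mouse E14 embryonic stem cells (mESCs) after 48 h of differentiation with retinoic acid (RA). Cells without PDGFRA on their surface were sorted into 4 bins by the strength of their CD24 antibody signal, numbered Q1 to Q4 from the lowest signal to the highest. They are 4 of the 38 samples of the series, 25 of which are bulk libraries, and the unsorted 48 h culture served as their reference. In these libraries, 138 of 6690 genes rose and 133 fell steadily from Q1 to Q4. All cells came from the E14 line, grown in 2i/L (a MEK inhibitor, a GSK3 inhibitor and LIF) and differentiated in N2B27 medium with 0.25 µM RA. The other libraries used here are 2 of mESCs in 2i/L, the unsorted cultures at 36 h and 60 h of RA, PDGFRA-negative cells sorted at 72 h into terciles of CD24 signal (T1 to T3), and 2 each of the cells sorted at 96 h as ectoderm-like (CD24-positive, PDGFRA-negative) and as XEN-like (PDGFRA-positive, CD24-negative, named after extraembryonic endoderm stem cells). Each quartile, each tercile and each time point is a single library, and the labels do not say whether the 4 quartiles came from the same culture.

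CD24 is a small, heavily glycosylated protein held at the cell surface by a GPI anchor, and it is an established marker of neural progenitors. RA enters the cell, is carried by CRABP proteins and activates nuclear receptors that switch on Hox genes and the enzymes that degrade RA itself. Under RA, mESCs lose the factors that hold the pluripotent state, such as the proteins encoded by Pou5f1, Nanog and Zfp42, and PDGFRA marks the cells that turn towards extraembryonic endoderm. Sorting PDGFRA-negative cells by CD24 at 48 h therefore asks how gene expression differs along the surface signal of the ectoderm-like lineage, at a time when cells of several states are present. In bulk libraries, fewer cells of a type and less RNA per cell cannot be told apart.

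The values are levels in CPM: the unique molecular identifiers of a gene (UMIs, tags by which each captured mRNA molecule is counted once), scaled to a fixed total of all UMIs of the library. The quartile libraries held 1495277 UMIs (Q1), 1400359 (Q2), 1063809 (Q3) and 1583762 (Q4), and the unsorted 48 h library held 2459424. Intervals in square brackets are exact 95% intervals that cover counting error only. A gene was tested when it had at least 40 UMIs summed over the quartiles, which 6690 of the 15886 genes with a UMI there did. A gene was called rising when its level increased at every step from Q1 to Q4, was at least 2-fold higher in Q4 than in Q1, and the interval of that ratio left out 1. Falling genes were called by the mirror rule.

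The sort itself could be checked on the gene of the sorted protein. Cd24a stood at 19.4 CPM in Q1, 35.7 in Q2, 60.2 in Q3 and 127 in Q4. Its transcript thus followed the label at every step, and Q4 was 6.54-fold above Q1 [4.42, 10.0]. The 2 mESC libraries held 12.7 and 40.9 CPM, so Q1 lay between them. Ccnd2, the D-type cyclin that drives cells through G1, rose still more steeply, from 5.35 CPM in Q1 through 8.57 and 14.1 to 42.3 in Q4, a 7.91-fold difference [3.79, 19.06]. Hes1, a transcriptional repressor downstream of Notch, had 10.0, 32.1, 32.0 and 44.2 CPM. Its level was lowest in Q1 and nearly the same in Q2 and Q3, so it did not meet the rule although Q4 was 4.41-fold above Q1 [2.50, 8.29].

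The 2 pluripotency-associated markers went the other way. Tdgf1, the Nodal co-receptor also called Cripto, had 76.9 CPM in Q1, 58.6 in Q2, 39.5 in Q3 and 9.47 in Q4, and Q1 was 8.12-fold above Q4 [4.72, 15.0]. L1td1, which encodes an RNA-binding protein of pluripotent cells, had 203, 186 and 147 CPM in Q1 to Q3 and 24.0 in Q4, and Q1 was 8.47-fold above Q4 [6.03, 12.2]. For both genes the last step was the largest. All quartiles were below the mESC libraries, which held 387 and 496 CPM of Tdgf1 and 397 and 325 of L1td1. Pdgfra, the gene of the protein that was sorted against, had 2.01, 7.86, 2.82 and 1.89 CPM, of which those of Q1, Q3 and Q4 rest on 3 UMIs each.

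**Figure D1:**
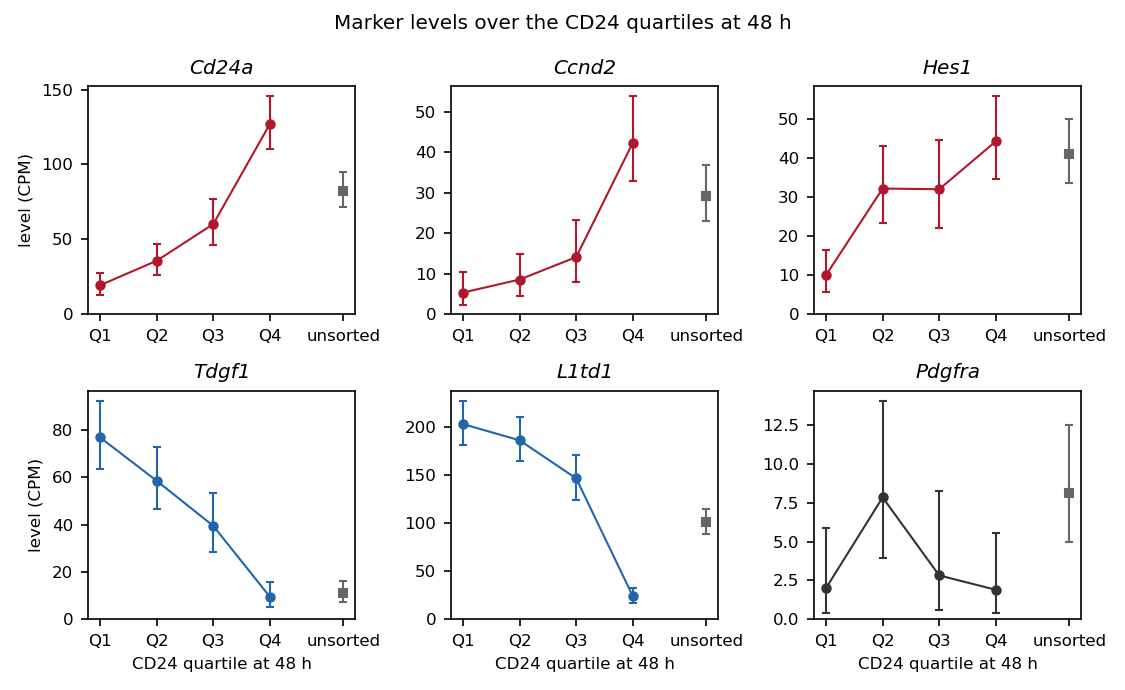
Level in CPM (vertical axis, starting at 0) of 6 genes in the 4 CD24 quartile libraries (circles joined by lines, 1 library each) and in the unsorted 48 h library (square). Bars are exact 95% Poisson intervals; Cd24a climbs from 19.4 to 127 CPM, while L1td1 stays above 140 CPM up to Q3 and stands at 24.0 in Q4.

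Of the 6690 genes tested, the 138 rising genes were 2.06% and the 133 falling genes 1.99%. Median folds were 2.53 for the rising and 2.61 for the falling genes, and the largest were 8.50 (Ednrb) and 13.4 (Gm7104, with 3 UMIs in Q4). Left-out libraries moved these counts: 216 genes rose without Q2 and 232 without Q3, and 73 fell without Q4. Without Q1, 93 rose, of which 32 were among the 138, and without Q4 199 rose, of which 45 were. Of the 133 falling genes 70 were also called without Q1 and 26 without Q4. Without the demand for a 2-fold difference, 573 genes (8.57%) were in rising order and 517 (7.73%) in falling order. How often 2 libraries differ this much is set by more than counting: between the 2 libraries of mESCs, 8.64% of the same genes differed at least 2-fold with an interval that left out 1, between the 2 of ectoderm-like cells 8%, and between the 2 of XEN-like cells 9.12%. Between Q4 and Q1, without regard to Q2 and Q3, 7.52% did. By this measure, a 2-fold difference was thus no more frequent between the outer quartiles than between libraries of 1 group. Depth was unlike, and an interval leaves out 1 more easily in deeper libraries. The mESC libraries held 2285865 and 2297225 UMIs, the ectoderm-like ones 1799260 and 1547784, and the XEN-like ones 1968896 and 1097083. Of the rising genes 62 (44.9%), and of the falling genes 69 (51.9%), also differed by 2-fold in at least 1 of those 3 pairs, against 21.5% of all genes tested.

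A trend was also fitted with edgeR's quasi-likelihood test, with the quartile number as a slope, and the 3 pairs of libraries and the scatter of the quartiles about that slope supplying the spread. It called 0 genes (0% in either direction) at an adjusted p below 0.05, with 466 genes at an unadjusted p below 0.05, and DESeq2 called 3 rising and 13 falling. The smallest adjusted p in edgeR was 0.169, which belonged among others to Crabp2, with a slope of 0.53 ± 0.08 (SE) in log2 per quartile, to Gm7102, with −0.93 ± 0.17, and to Gm8994, with −0.52 ± 0.10. What follows therefore describes these libraries, and the 72 h terciles, the unsorted time course and the sorted 96 h cells serve as separate readouts of the same genes.

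The size of the 2 groups also depends on the scaling. With DESeq2 size factors 116 genes rose and 172 fell, so that the share of rising genes among the calls went from 50.9% to 40.3%. Relative to Gapdh, whose own level was 1.24-fold higher in Q4 than in Q1, 41 rose and 318 fell, and the median log2 difference of all genes moved from 0.03 to −0.28.

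**Figure D2:**
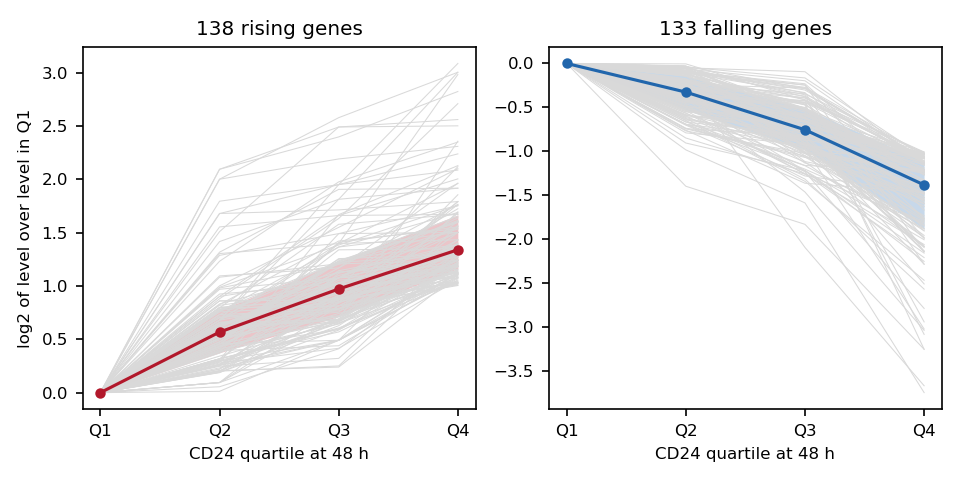
log2 of the level over that in Q1 (vertical axes) along the CD24 quartiles for each of the 138 rising genes (left) and the 133 falling genes (right). Grey lines are single genes, the coloured line is the median over genes and the tinted band spans the middle 50% of genes; the median of the falling genes drops most between Q3 and Q4.

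In both groups the largest median step lay next to the library where the genes were lowest. The genes were chosen on these same values, so the courses are a description only. Among the rising genes, the median share of the log2 change was 39.9% for the step from Q1 to Q2, 25.9% for Q2 to Q3 and 26.9% for Q3 to Q4, and 65 of 138 had their largest step at the start. Among the falling genes the shares were 22.3%, 25.6% and 48.8%, and 93 of 133 (69.9%) had their largest step between Q3 and Q4. Together the rising genes held 0.332% of the UMIs in Q1, 0.467% in Q2, 0.641% in Q3 and 0.852% in Q4. The falling genes held 1.32%, 1.00%, 0.734% and 0.405%. Genes at the edge of the rule were Rabl5 and Pigk (both 2.01-fold, called) and Dpysl2 (1.99-fold, not called) on the rising side, and Cggbp1 and Taf11 (both 2.01-fold, called) and AF067061 (1.99-fold, not called) on the falling side.

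Genes of neural progenitors were higher in the upper quartiles. The neuroectoderm list, taken from the study, which chose it on data of this series, has 11 genes, of which 10 were tested. All 10 were higher in Q4 than in Q1 and 7 rose, with a median log2 ratio of 1.25 against 0.03 for all genes tested. Without Cd24a, the gene of the sorted protein, 6 of 9 rose and the median was 1.23. Relative to Gapdh the median of the 10 was 0.94 and only Cd24a kept a graded rise. Prtg, which encodes the neural surface protein protogenin, had 39.5, 83.5, 91.2 and 114 CPM from Q1 to Q4. Mdk, the growth factor midkine, rose from 235 through 303 and 443 to 500.1 CPM. Fabp5, a fatty acid-binding protein, had 74.2 and 77.1 CPM in Q1 and Q2, then 98.7 and 174. Meis1, a homeodomain partner of Hox proteins, went from 44.1 through 55.0 and 66.7 to 107 CPM. The neural transcription factors Sox11 and Sox1 rose from 4.68 to 13.3 CPM and from 5.35 to 13.3 CPM, at levels where the intervals of the ratios nearly reach 1 (lower bounds 1.16 and 1.05). Pax6 (8.03, 5.71, 13.2 and 15.2 CPM), Crabp1 (16.7, 19.3, 42.3 and 38.5 CPM) and Hoxb2 (436, 441, 582 and 452 CPM) were not called.

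A second neural list has 25 other progenitor genes, 10 of them tested, of which 8 were higher in Q4 than in Q1. Vim (log2 ratio −0.19) and Stmn2 (−0.51) were lower in Q4 and were not called. In this list 5 genes rose and 0 fell, with a median of 1.5, and the 5 kept their call under every scaling tried. Crabp2, the RA-binding protein that delivers RA to its nuclear receptors, was the most abundant of them, with 359 CPM in Q1, 506 in Q2, 847 in Q3 and 1089 in Q4. Its ratio of 3.03 [2.75, 3.35] is among the best determined here. Sox4, a relative of Sox11, had 10.0, 15.0, 22.6 and 39.1 CPM, a 3.90-fold difference [2.19, 7.39], and at most 0.435 CPM in the mESC libraries. Ednrb, the endothelin receptor B of neural crest cells, went from 2.68 through 4.28 and 10.3 to 22.7 CPM. That 8.50-fold difference rests on 4 UMIs in Q1 and its interval is wide [3.05, 32.9]. Ncam1, the neural cell adhesion molecule, had 2.68, 11.4, 14.1 and 18.9 CPM, also from 4 UMIs in Q1. Mest rose from 241 through 289.9 and 448 to 635 CPM, and its neighbour Copg2, a coat protein subunit, from 108 through 124 and 166 to 275. The 2 genes overlap on chromosome 6 (Mest at chr6:30733506-30748466 and Copg2 at chr6:30747554-30896815 of GRCm38), and since the counting is not stated to use the strand, their counts may not be fully separate.

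**Figure D3:**
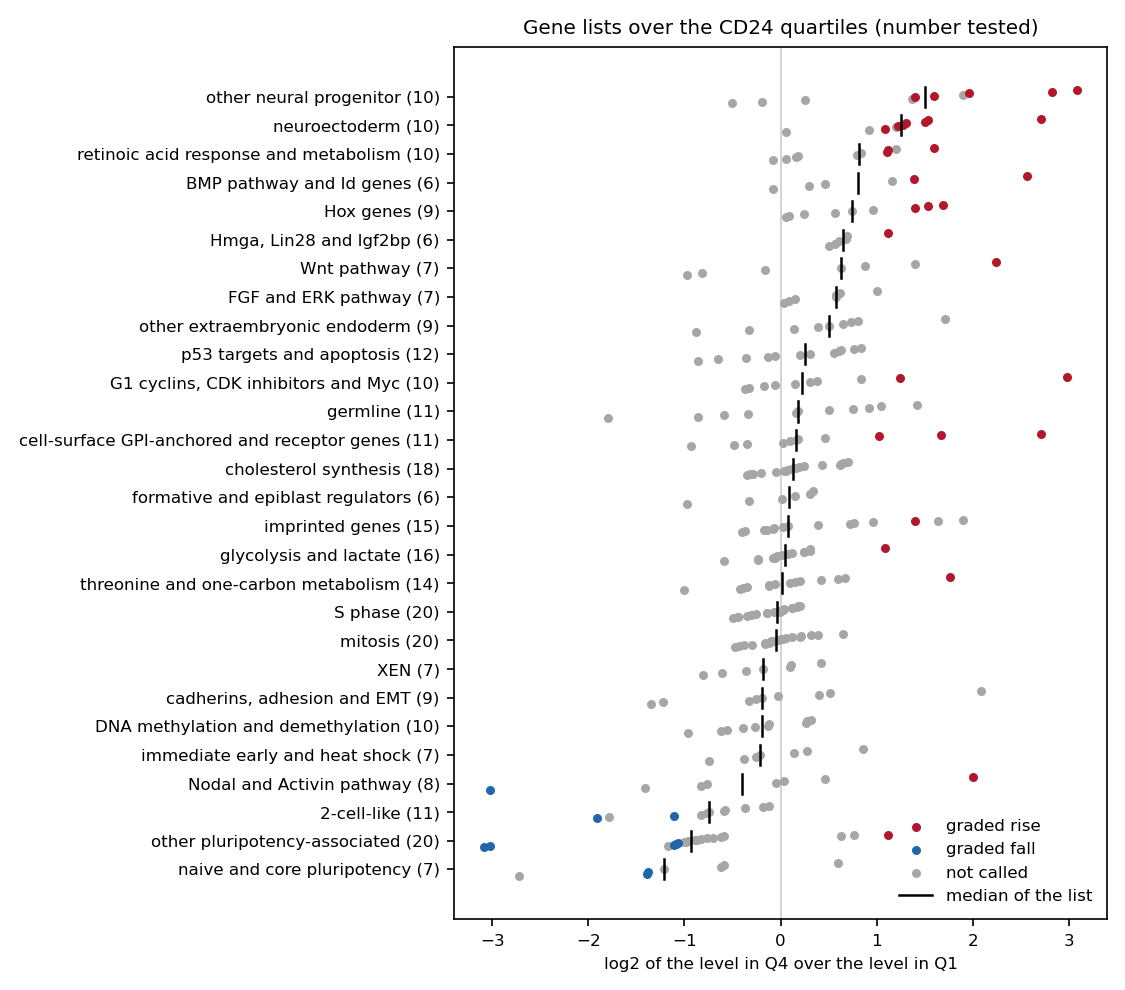
log2 of the level in Q4 over that in Q1 (horizontal axis) for the tested members of 28 gene lists, with the number tested in parentheses and lists ordered by their median (black tick). Red points are genes called rising, blue points genes called falling and grey points genes not called; neural lists stand at the top, with medians of 1.5 and 1.25, and pluripotency lists at the bottom, with −0.93 and −1.21.

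RA-responsive genes were graded in part. Of the 22 genes of the RA list 10 were tested and 3 rose, with a median of 0.82 (0.51 relative to Gapdh, where only Crabp2 was called). Stra6, the receptor that takes up retinol, had 38.1, 43.6, 68.6 and 82.1 CPM. Dhrs3, an enzyme that reduces retinal, had 87.6, 122, 161 and 191 CPM. Cyp26a1, the enzyme that degrades RA, had 46.1, 46.4, 74.3 and 80.2 CPM, and Stra8 stayed between 289 and 325 CPM in all 4 libraries, and neither was called. Among 9 tested Hox genes all were higher in Q4 than in Q1, and the median was 0.75. Among those that rose, under every scaling, were Hoxb5 (10.0, 11.4, 16.0 and 26.5 CPM) and Hoxb6 (8.03, 13.6, 20.7 and 25.9 CPM), which are neighbours on chromosome 11. Hoxb1, by contrast, had 38.8, 47.8, 47.9 and 46.1 CPM and was not called.

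Among G1 regulators, Ccnd2 and its relative Ccnd1 rose, the latter from 8.03 through 11.4 and 15.0 to 18.9 CPM, while the other 8 tested members were not called. Ccnd1 lost its call relative to Gapdh, and the median of the list (0.23) changed sign relative to Gapdh (−0.08). Their kinase partner Cdk4 had between 241 and 268 CPM in every quartile. Of 20 S phase and 20 mitosis genes, all tested, 0 rose and 0 fell, with medians of −0.04 in both. In the BMP list, 2 of 6 tested genes rose. The inhibitor of differentiation Id3 had 14.7, 17.1, 32.0 and 38.5 CPM, and the signal transducer Smad1 had 2.68, 11.4, 15.0 and 15.8. Relative to Gapdh only Id3 was called. Sfrp1, a secreted Wnt antagonist, rose from 2.68 through 9.28 and 10.3 to 12.6 CPM as the only called gene of 7 tested in the Wnt list. The Q1 levels of Smad1 and Sfrp1 rest on 4 UMIs each. None of the 4 tested genes of the Notch list and none of the 7 of the FGF list was called, in either direction.

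Surface and metabolic genes added single members. Of 11 tested genes of surface proteins 3 rose: Cd24a itself, Prom1, the gene of the progenitor marker CD133, with 5.35, 9.28, 16.0 and 17.05 CPM, and the complement inhibitor Cd59a, with 8.69, 10.0, 16.0 and 17.7, a call that was lost under the other scalings. The median of the list, 0.16, changed sign relative to Gapdh (−0.15). Slc2a1, the main glucose transporter, rose from 299.6 through 399 and 452 to 635 CPM, a 2.12-fold difference [1.89, 2.38] that was lost relative to Gapdh, and it was the only called gene of 16 in the glycolysis list. Gldc, the glycine-cleaving enzyme, rose in the one-carbon list of 14 from 3.34 to 11.4 CPM, a call that was also lost relative to Gapdh. None of the 18 cholesterol synthesis genes and none of the 12 tested p53 targets was called. Lin28a, an RNA-binding protein listed with pluripotency genes, was the exception in that list and rose from 95.6 through 126 and 129.7 to 207 CPM, a call that was lost with TMM or DESeq2 factors and relative to Gapdh.

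The remaining genes with the largest rises are mostly outside these lists, which hold 28 of the 138 rising genes between them and leave out 110. Sh3bgrl, a small thioredoxin-like protein, had 12.7, 15.7, 40.4 and 55.6 CPM. Tes, a LIM protein of focal adhesions, had 16.1, 32.1, 47.0 and 68.8 CPM. The nucleosome-binding protein gene Hmgn3 (10.7 to 41.7 CPM) and the splicing regulator Qk (16.7 to 53.7 CPM) lost their call relative to Gapdh, the only 2 of the 24 genes with the largest changes to do so. Serf1 (12.0 to 41.7 CPM), the RA-inducible receptor Gprc5c (22.1 to 67.6 CPM), the carbonic anhydrase Car3 (48.2 to 146 CPM) and the arginase Arg1 (54.8 to 162 CPM) completed the 12. Arg1 had 0 and 0.435 CPM in the mESC libraries, so that its lowest quartile was already far above them. In all, 42 of the 138 rising genes (30.4%) were at least 2-fold above both mESC libraries in Q1, against 11.03% of all genes tested, and 70 (50.7%) were in Q4, against 11.8%. For 18 of them (13.04%), against 5.77% of all genes, both mESC libraries were at least 2-fold above Q1. The choice of genes that are highest in Q4 and lowest in Q1 favours the share in Q4 and this last share.

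A minority of the pluripotency genes tested was called falling. Of 7 tested genes of the study's pluripotency list 6 were lower in Q4 than in Q1 and 2 fell, with a median of −1.21. Zfp42 (Rex1), a marker of the naive state, had 148, 134, 102 and 56.8 CPM. Pou5f1 (Oct4), the central pluripotency factor, had 109, 95.0, 74.3 and 41.7 CPM. Nanog had 627, 541, 494 and 417 CPM, an ordered decline of less than 2-fold that was not called, and every quartile was above the mESC libraries (163 and 155 CPM). Dppa5a, with 5703, 5729, 5153 and 3717 CPM one of the most abundant transcripts of the list, was not called. Sox2, which is shared by pluripotent and neural cells, had 18.7, 31.4, 32.0 and 28.4 CPM. In a wider list of 20 tested pluripotency-associated genes, 17 were lower in Q4, 5 fell (L1td1, Tdgf1, Utf1, Spp1 and Rex2) and 1, Lin28a, rose. With DESeq2 factors 8 fell, and relative to Gapdh 9. Outside the lists, Upp1, a uridine phosphorylase, fell from 870.1 CPM in Q1 through 694 and 514 to 232 in Q4, and Ooep, a gene of the maternal complex of the egg, from 162 through 139 and 86.5 to 37.9. Hsd17b11, a steroid dehydrogenase, fell from 108 through 67.8 and 61.1 to 27.2 CPM, and the lens crystallin gene Crygd from 39.5 through 30.0 and 16.9 to 8.84.

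Nodal signalling and the post-implantation epiblast gave little to measure. Of 8 tested genes of the Nodal list 5 were lower in Q4 than in Q1, with a median of −0.41, and Tdgf1, described above, was the one that fell. Nodal itself had 10.0, 10.7, 8.46 and 3.79 CPM and Lefty1 52.8, 43.6, 42.3 and 54.3, and neither was called. Of the 7 post-implantation epiblast genes listed here 2 were tested, and both encode DNA methyltransferases. Dnmt3a had 62.2, 52.1, 36.7 and 42.3 CPM and Dnmt3b 41.5, 32.8, 32.0 and 37.9, and neither was called. The other 5 had fewer UMIs than the minimum for testing: Pou3f1 had 9, 10, 5 and 12 UMIs and Wnt8a 7, 8, 5 and 5, while Fgf5, Cer1 and Cd40 had at most 2 UMIs in any quartile. Summed over the 7 genes, the level was 115, 100.0, 81.8 and 94.7 CPM from Q1 to Q4, most of it from Dnmt3a and Dnmt3b. The study describes a rise of such markers along CD24 in PDGFRA-negative cells at 48 h. Its text names Pou3f1 and Fgf5 as examples, both too low to be tested here, so the sum is not a measure of the same markers. Its full marker set may differ from these 7, and it also classified whole profiles, which was not repeated here. The 10 mesoderm genes listed had too few UMIs for any to be tested, and 5 of them had 0 in all quartiles.

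A large set of falling genes was of another kind and was higher in Q1 than in mESCs. Some of its members were close to 0 in mESCs and abundant in Q1. Others were not: Trim43b had 67.4 and 54.4 CPM in the mESC libraries, and Adamts2 had only 16.1 CPM in Q1. Of the 133 falling genes, 62 (46.6%) were at least 2-fold above both mESC libraries in Q1, against 11.03% of all genes tested, and 43 (32.3%) were so in Q4, against 11.8%. The choice of genes that are highest in Q1 favours the first of these shares. The 62 genes also include Gm4340 and its copies, 7 near-identical genes described below, and copies were not counted once here. In 13 (9.77%), against 5.77% of all genes, both mESC libraries were at least 2-fold above Q1. Gm7102, in Q1 the most abundant of the 62, had 1574 CPM in Q1, 1135 in Q2, 669 in Q3 and 228 in Q4, so that Q1 was 6.91-fold above Q4 [6.18, 7.74]. It had 8.31 and 5.22 CPM in the mESC libraries and 135 in the unsorted 48 h culture. Dcdc2c (615, 392, 243 and 111 CPM), 2310039L15Rik (488, 330, 204 and 105 CPM), AA792892 (138, 85.7, 76.1 and 31.6 CPM), 1700030L20Rik (245, 166, 113 and 58.1 CPM), B020004J07Rik (216, 120.0, 90.2 and 51.8 CPM) and D17Ertd648e (256, 169, 110.0 and 63.8 CPM) followed the same course. All 6 had at most 11.8 CPM in either mESC library.

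Gm4340 and Tcstv1, 2 members of this set, are also in the list of 2-cell-like genes, which are active in the embryo after its earliest cleavage and in rare mESCs. Of 11 tested genes of that list all were lower in Q4 than in Q1, 2 fell and 0 rose, with a median of −0.75. Gm4340 had 229, 163, 113 and 61.2 CPM, and Tcstv1 70.9, 52.8, 45.1 and 32.8. The Zscan4 genes, which define the state, were present but not called. They make up a large part of the list, and whether their reads can be told apart was not examined. Zscan4c had 257, 269, 265 and 199.5 CPM, against 1.75 and 1.31 in the mESC libraries. Summed over the 12 genes of the list, the level was 1374, 1305, 1230.5 and 829 CPM from Q1 to Q4 and 438 CPM in the unsorted culture, and the mESC libraries had 329 and 253 CPM, most of it Eif1a.

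Some of the falling genes are near-identical copies of other tested genes at their 3′ end, and some lie close together. In GENCODE transcripts, 24 of the falling genes share their 3′ end with another tested gene, in 13 groups, against 1 of the rising genes. A shared end means at least 95% identity over at least 250 of the last 500 bases. Only called genes were searched for such matches, so the share among all tested genes is not known. Counting each group once left 122 falling genes, and since reads of such copies could be split between them, values of single copies are uncertain. Gm4340 and 6 copies of it lie in chr10:104142987-104196522 of GRCm38, and these 7 are the only tested genes there. Their levels were between 229 and 249 CPM in Q1 and between 61.2 and 71.3 in Q4, and between 0 and 2.18 CPM in the mESC libraries. A further 9 falling genes lie in chr12:87514316-88321762, where 10 genes were tested. The other, Gm1995, was not called, was also higher in Q1 than in Q4 and shares its 3′ end with the falling Gm7104. Both windows were drawn around falling genes, so these counts are a description only. Gm7102 and Dcdc2c share a 3′ end although they are on different chromosomes.

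The promoters of part of the set are alike as well. The 300 bases around the RefSeq start of Gm4340, and those of D17Ertd648e on another chromosome, are shown because both genes fell and their promoters match over most of their length. Capitals mark the longest run of bases that both share exactly.
Gm4340, chr10:104193792-104194091, plus strand, GRCm38.p6: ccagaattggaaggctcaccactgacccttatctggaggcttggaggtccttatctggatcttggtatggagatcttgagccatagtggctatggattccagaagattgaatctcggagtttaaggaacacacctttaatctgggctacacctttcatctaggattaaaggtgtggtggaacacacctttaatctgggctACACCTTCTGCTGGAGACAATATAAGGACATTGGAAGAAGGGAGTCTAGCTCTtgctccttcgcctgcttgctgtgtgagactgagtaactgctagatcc
D17Ertd648e, chr17:11883140-11883439, minus strand, GRCm38.p6: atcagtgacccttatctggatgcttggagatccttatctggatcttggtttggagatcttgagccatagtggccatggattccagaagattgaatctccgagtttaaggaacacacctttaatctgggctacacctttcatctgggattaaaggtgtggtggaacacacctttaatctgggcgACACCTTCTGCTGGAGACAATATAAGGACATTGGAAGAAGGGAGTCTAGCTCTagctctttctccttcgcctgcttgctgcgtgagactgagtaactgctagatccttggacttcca
The shared run is 53 bases long and occurs in 13 of the 32851 promoters of the table (0.0396%). In all, 20 promoters (0.0609%), of 19 genes, matched that of Gm4340 over at least 200 bases. Of these genes 9 were tested, and 8 of the 9 fell: Gm4340 with 5 of its copies, D17Ertd648e with 94.4% identity and B020004J07Rik with 87.9%. Pemt, whose promoter was 96.6% identical, was tested and not called. Of all genes tested 1.99% fell, but this count cannot be read against that share. Gm4340 was picked as a falling gene, and its copies share its 3′ end, so their calls are not separate. The match is a description of sequence only.

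The 72 h terciles are other libraries, of cells sorted a day later, and were not used to choose the genes. There, 2.62% of 5946 tested genes rose and 6% fell by the same rule. Of the 119 rising genes of 48 h that could be tested, 25 (21%) rose again and 3 fell, and 93 were higher in T3 than in T1. Of 91 falling genes 46 (50.5%) fell again and 1 rose, and 82 were lower in T3. Cd24a had 49.7, 122 and 256 CPM from T1 to T3. Ccnd2 had 34.96, 129.7 and 469.7 CPM, a 13.4-fold difference [9.92, 18.6]. Crabp2 (759, 1128 and 1641 CPM), Ednrb (20.2, 59.1 and 134 CPM) and Sh3bgrl (34.2, 88.2 and 124 CPM) rose as well.

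Not every gene kept its course. Tes had 38.1, 64.4 and 37.6 CPM in the terciles, Gprc5c 52.1, 51.2 and 38.4, and Slc2a1 194, 153 and 167, and these 3 were not called. Tdgf1 (20.98, 2.65 and 7.68 CPM), L1td1 (79.2, 13.2 and 21.5 CPM) and Upp1 (190.3, 47.6 and 56.0 CPM) were highest in T1 but lowest in T2, so that none of the 3 met the rule. Gm7102 had 1589, 439 and 134 CPM, an 11.9-fold difference [10.2, 14.0], and Gm4340 322, 74.1 and 35.3. In the 2-cell-like list 9 of 10 tested genes fell over the terciles, among them Zscan4c with 381, 178 and 69.8 CPM. The Zscan4 genes were not searched for 3′ ends shared among them, so the members of this list may not be separate. Without genes that share a 3′ end, 41.2% of the falling genes of 48 h fell again.

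**Figure D4:**
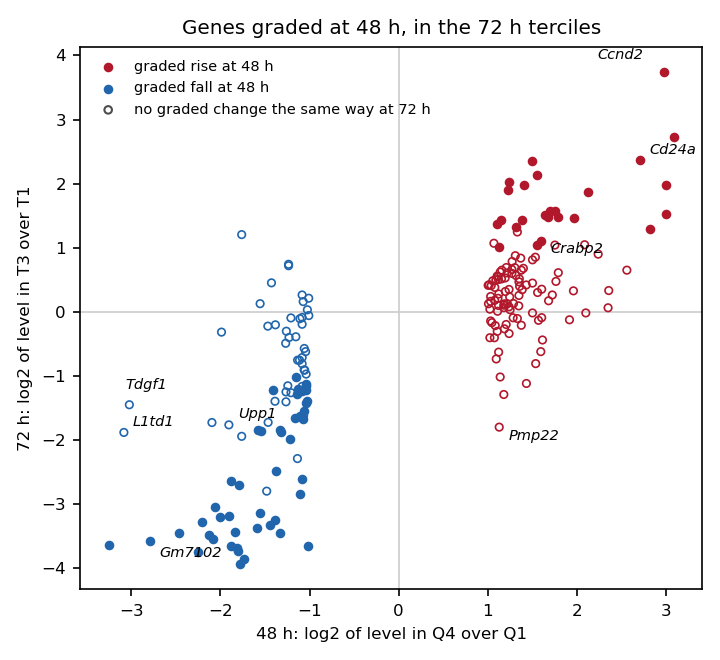
log2 of the level in T3 over T1 at 72 h (vertical axis) against log2 of the level in Q4 over Q1 at 48 h (horizontal axis), for the genes graded at 48 h that were tested in both. Red points rose and blue points fell at 48 h, filled points were called the same way at 72 h and open points were not; Ccnd2 and Cd24a lie at the upper right, and Gm7102 with other falling genes at the lower left.

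The unsorted time course gave a different division. Between 36 h and 60 h, 9.37% of 5625 tested genes were at least 2-fold higher and 3.89% at least 2-fold lower, with intervals that left out 1. Of 106 rising genes tested there, 58 (54.7%) were higher at 60 h and 1 was lower. Ccnd2 went from 3.63 to 169 CPM and Ednrb from 1.82 to 71.5. Of 88 falling genes 30 (34.1%) were lower at 60 h and 17 (19.3%) were higher. Tdgf1 (84.1 to 7.21 CPM) and Upp1 (407 to 81.1 CPM) were among the lower ones. Gm7102, Dcdc2c, Gm4340, 1700030L20Rik and B020004J07Rik were among the higher ones, Gm4340 going from 10.3 to 40.2 CPM. Gm7102 and Dcdc2c share a 3′ end, and copies were not counted once in these numbers. The falling genes thus hold a group that declined with time and a group that increased over the same hours.

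**Figure D5:**
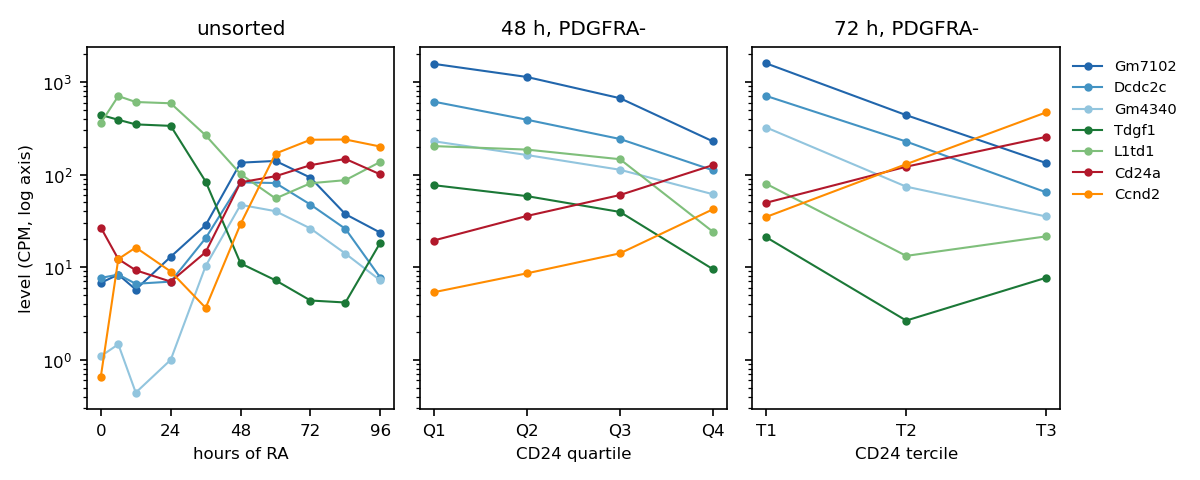
Level in CPM (vertical axes, log scale) of 7 genes in the unsorted cultures by hours of RA (left), in the CD24 quartiles at 48 h (middle) and in the CD24 terciles at 72 h (right), 1 library per point except 0 h, the mean of the 2 mESC libraries. Gm7102, Dcdc2c and Gm4340 (blue) increase in the unsorted cultures between 24 h and 48 h and fall with CD24 in both sorts, whereas Tdgf1 and L1td1 (green) decline in the cultures between 24 h and 48 h.

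The sorted cells of 96 h were compared with mESCs. In ectoderm-like cells, 20% of 8154 tested genes were at least 2-fold higher than in mESCs without overlap of the libraries, and 9.12% were lower. Of 131 rising genes 81 (61.8%) were higher and 0 were lower. Ccnd2 had 524 and 404 CPM in the ectoderm-like libraries, against 0.875 and 0.435 in mESCs. Of 100 falling genes 44 (44%) were lower in ectoderm-like cells and 9 (9%) were higher. Zfp42, with 20.6 and 13.6 CPM against 1109 and 789, was lower.

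For most of the graded genes, Q4 was the quartile nearest to the unsorted 48 h culture. The labels do not say that the quartiles were sorted from this culture. Differences between cultures or libraries therefore cannot be told apart from effects of the sort. The unsorted culture lay above every quartile for 79 of the 138 rising genes, within their range for 55 and below for 4. For the 133 falling genes it lay below every quartile for 72, within for 55 and above for 6. Over all genes tested, 43.7% were above, 37.7% within and 18.6% below. Q4 was the nearest quartile for 99 rising (71.7%) and 87 falling genes (65.4%), against 33.3% of all genes tested. Gm7102 had 135 CPM there, less than the 228 of Q4, and Mdk had 1175, more than the 500.1 of Q4. The 11 XEN markers summed to 517 CPM in the unsorted culture, against 209 to 268 in the quartiles and 4381 in PDGFRA-positive cells of 72 h. Of these markers 7 were tested over the quartiles and 0 were called. Sparc, a secreted matrix protein, had 108, 99.3, 150 and 144 CPM, and Col4a1, a basement membrane collagen, 8.69, 9.28, 11.3 and 5.68. Of 9 tested genes of a second extraembryonic endoderm list 0 were called, and its summed level was 245, 297, 361 and 347 CPM from Q1 to Q4. The part of XEN-like cells in the graded genes was not tested.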

How the data were processed

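Bulk RNA was measured by 3′ sequencing with UMIs. The authors used BWA 0.7.4 for alignment, with RefSeq mRNAs (mm10 set) as the reference, and deposited raw counts of unique UMIs per gene and library, with replicates not pooled. The table has 23481 entries, of which 23475 genes were used, since 2 held text in place of a count and 4 entries had repeated names. The single-cell files were not used here. Counts were divided by the library total. With 1 library a quartile and no replicates of it, graded genes were called without a test, by order, a 2-fold ratio and an exact 95% interval (Clopper-Pearson, conditional on the sum of both counts), among genes with at least 40 summed UMIs. A count of 3 UMIs stands for 1.89 to 2.82 CPM in the quartile libraries. The trend was fitted with edgeR 4.0.16 (R 4.3.3) on 10 libraries, with TMM factors, Benjamini-Hochberg adjustment and a threshold of 0.05, and DESeq2 1.42.0 was an alternative. The study's methods call the 2 libraries each of mESCs, ectoderm-like and XEN-like cells biological replicates; the spread in the fit came from these pairs and from the scatter of the quartiles about the slope, with 5 residual degrees of freedom. Copies were found with BLAST 2.17.0 in GENCODE transcripts, where 252 of 271 called genes matched a transcript by symbol. Promoter matches were found with the same program in promoters at RefSeq starts of GRCm38.p6. Other steps used Python 3.11.15, numpy 2.4.6, scipy 1.17.1 and pandas 2.3.3, and scripts were tested on simulated data. In those runs the graded rule called 127 of 6690 genes when no gene was given a change. It recovered 63% of genes given a log2 change of 2 and 87% of those given 3. The edgeR trend called 11 without a change and recovered 67% and 98%. How many of the 271 called genes would not be called again in new libraries was not tested. Named genes were the sorting markers, the 12 largest graded changes in each direction with at least 50 UMIs in Q1 or Q4, list members that were called or abundant, and the 5 smallest trend p-values in each direction. The members and lists were chosen with earlier results of these data known. Results for some genes are not reported here.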

Additional observations from a re-analysis of the deposited data

Results flagged for a closer look

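Genes graded in opposite directions over the 48 h quartiles and the 72 h terciles were 4, and the difference between the time points was not tested for any of them. Relative to Gapdh the 48 h rises of Clu, Dap and Pmp22 were lost, that of Dap also with DESeq2 factors, while Wdr20a kept its fall under every scaling tried. Clu, the gene of the secreted chaperone clusterin, had 48.2, 65.7, 127 and 130.1 CPM from Q1 to Q4, a 2.70-fold rise, and 127, 115 and 58.3 CPM from T1 to T3, where T3 was 0.461 times T1. Dap had 6.69, 11.4, 14.1 and 15.2 CPM over the quartiles and 45.1, 29.1 and 18.4 CPM over the terciles, where T3 was 0.409 times T1. Pmp22, a myelin membrane protein also made outside the nervous system, had 50.8, 79.3, 101 and 111 CPM and then 200.4, 148 and 57.6 CPM, where T3 was 0.287 times T1. Wdr20a went the other way, with 10.7, 8.57, 7.52 and 3.16 CPM over the quartiles and 6.99, 10.6 and 16.1 CPM over the terciles, where T3 was 2.31 times T1.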

How the results depend on the processing

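Of 83 values under other settings 59 stayed near the main value (for counts, within 1.5-fold), 24 moved and 0 reversed. Against 138 rising and 133 falling genes, 41 rose and 318 fell relative to Gapdh, 29 and 59 with at least 200 summed UMIs, 221 and 259 at 1.5-fold, and 260 and 239 when steps against the direction within counting error were allowed. Without a filter on low counts 215 rose. Leaving out 1 quartile library at a time gave 93 to 232 rising and 73 to 197 falling genes, with 216 rising without Q2, 232 rising without Q3 and 73 falling without Q4. The genes changed more than the counts: 32 of the 138 rising genes were among the 93 without Q1 and 45 among the 199 without Q4, and of the 133 falling genes 70 were called without Q1 and 26 without Q4. The trend test, with 0 genes called in either direction, called 108 rising and 255 falling genes on only the 4 quartile libraries, 3 and 13 with DESeq2, and 17 and 38 without a filter on low counts. Leaving out 1 library at a time gave 0 to 1 rising and 0 to 7 falling genes, the highest values without either ectoderm-like library. With a replicate block for the ectoderm-like and XEN-like libraries it called 4 and 19. These share only a number in the labels (correlation of their replicate differences 0.375), and the quartiles have none. Counting copies once and leaving out each ectoderm-like and mESC library were chosen after seeing the data; the latter gave 1555 to 1857 higher and 783 to 939 lower genes. The cause of these shifts was not tested. Depth limits the quartile values: genes near 3 UMIs carry intervals that span several-fold.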
